A study of Homo sapiens with 2 samples.

Results

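The axon guidance ligands and receptors were examined in TFK1, an established cell line of cholangiocarcinoma (CCA), a cancer of the bile duct. The genes were taken by their symbols, with earlier results of these data known, and comprised the semaphorins SEMA3 to SEMA7, the plexins, the neuropilins, the ephrins, the Eph receptors, the netrins with their receptors DCC and UNC5, and the SLIT and ROBO genes. There were 69 of them among the 56638 genes of the deposited tables, 35 ligands and 34 receptors. The study sequenced RNA from TFK1 cells with knockdown of MBD2 (sh-MBD2) and from negative control cells (sh-NC), with 1 library per condition. The sources used here name no further treatment of either culture. In the study shRNAs were delivered by lentivirus and infected cells were selected with a drug, and the labels do not name which MBD2 shRNA the sequenced cells carried. MBD2 is a protein that binds methylated CpG dinucleotides, and the comparison asks which genes depend on it. DNA methylation was not measured.

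Guidance cues steer growing axons and migrating cells by attraction or repulsion. Semaphorins signal through plexins, and the secreted SEMA3 ligands usually need a neuropilin as co-receptor. Ephrins are bound to the membrane, the A type by a lipid anchor and the B type by a membrane-spanning segment, so that Eph receptors, which are tyrosine kinases, sense them on a touching cell. Netrins bind DCC and UNC5, and SLIT proteins bind ROBO. In epithelia the same families act at cell contacts, in the basement membrane and in vessel growth around tumors.

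The counts summed to 14728814 in sh-MBD2 and 14467406 in sh-NC. MBD2 had 365 counts in sh-MBD2 against 1013 in sh-NC, or 15.6 and 44.6 TPM (a level scaled to gene length and library total), so the targeted gene was lower in the library labelled as its knockdown. Log2FC is the log2 ratio of sh-MBD2 over sh-NC after scaling for library size, given for genes whose counts in both libraries together reached 10. Since each condition has 1 library, no difference here has a replicate check and no p-value is given, and the 95% intervals, computed by the exact Clopper-Pearson method on how the reads of a gene divide over the libraries, cover counting error only. The 9 biliary epithelial markers with at least 10 counts had TPM that summed to 4841 in sh-MBD2 and 6049 in sh-NC. The summed TPM was 2.27 and 2.34 for 8 leukocyte markers, 0.492 and 0.702 for 6 fibroblast markers and 0.0686 and 0.607 for 6 endothelial markers. The 8 markers of neurons and Schwann cells summed to 67.0 and 73.6 TPM, mostly from SNAP25 (41.7 and 40.6 TPM) and RBFOX3 (19.0 and 25.9 TPM), with STMN2 and GAP43 at 0 counts in both libraries. Of the 38 markers, 14 had at least 10 counts and none of these had a log2FC past 1 or -1, and their part in the results below was not tested. In bulk RNA, fewer cells of a type and less RNA per cell cannot be told apart.

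Most guidance genes were read in these bile duct cancer cells, at levels that spanned from none to above 100 TPM. Of the 69 genes, 58 had at least 10 counts, 46 reached 1 TPM in sh-NC and 45 did in sh-MBD2. The median level of the 58 genes was 4.86 TPM in sh-MBD2 and 5.01 TPM in sh-NC, beside 12.2 TPM in sh-NC for all 17545 genes with at least 10 counts. No count was found for SEMA5A, SEMA6D, EPHA8, SLIT1 and ROBO4, and fewer than 10 for SEMA5B, EPHA1, EPHA3, EPHB1, NTN3 and ROBO2. The highest levels belonged to the neuropilin NRP1, with 179 TPM in both libraries, and the secreted ligand SEMA3C, with 161 TPM in sh-MBD2 and 145 TPM in sh-NC. NRP2, PLXNB2, SEMA4B, NTN4, EPHA2, ROBO1 and PLXND1 followed, each above 40 TPM in both libraries.

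A log2FC above 1 was found for 6 of the 58 genes (10.3%), and for 5.48% of all genes tested. One below -1 was found for 7 genes (12.1%), and for 5.07% of all genes tested. The higher genes were EFNA1, EFNA2, EPHB2, SEMA3G, PLXNA4 and UNC5B, and the lower ones were SEMA3D, SEMA3E, EPHA5, EPHA6, EPHA10, EPHB3 and DCC. Both directions were represented, and the median log2FC of the 58 genes was -0.013, beside -0.0082 for all genes. The whole interval lay above 1 for 2 genes, EFNA1 and EPHB2, and below -1 for 2 genes, SEMA3E and DCC, beside 1.37% and 0.581% of all genes tested. Among the 38 guidance genes with at least 100 counts, EFNA1 and EPHB2 lay above 1 and SEMA3E, EPHA5 and EPHA10 below -1, or 5.26% and 7.89%, beside 1.78% and 1.06% of all genes with at least 100 counts. Genes are not replicates, so these shares describe the 2 libraries only. Around the lines, EPHA10 at -1.02 was the member just past -1 and PLXNA2 at -0.99 the one just inside it, and EFNB1 at 0.93 was the nearest below 1.

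**Figure D1:**
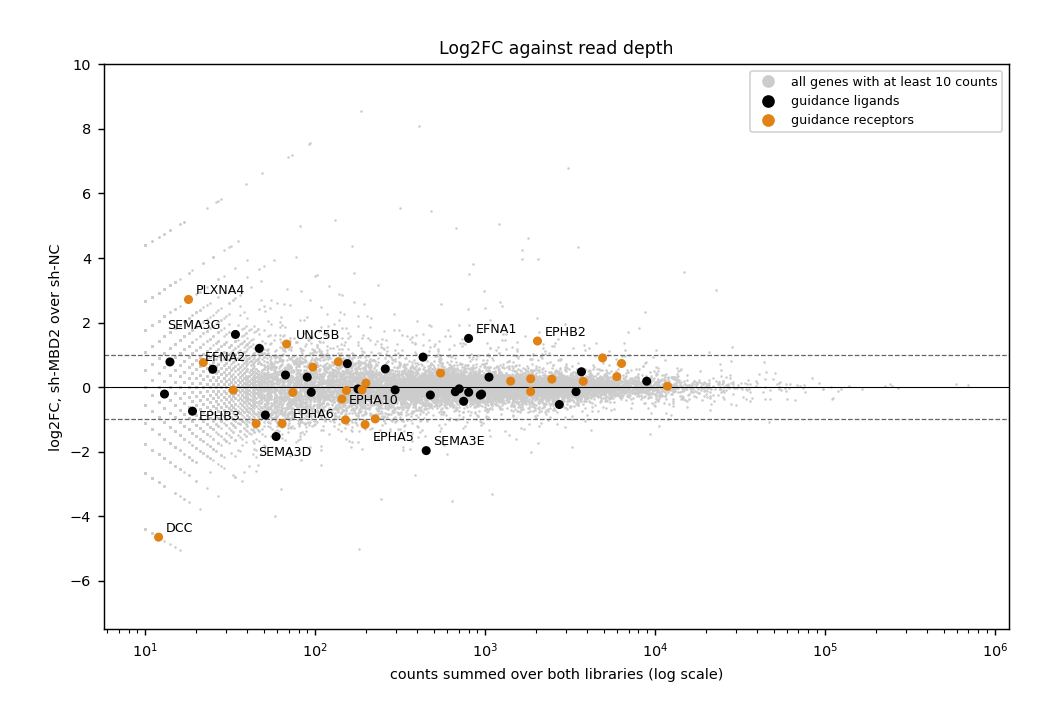
Log2FC (sh-MBD2 over sh-NC) against the counts summed over both libraries, on a log scale, for all 17545 genes with at least 10 counts (grey), guidance ligands (black) and guidance receptors (orange), with dashed lines at 1 and -1 and the 13 genes past them named. EFNA1, EPHB2, SEMA3E, EPHA5 and EPHA10 lie past the lines with more than 100 reads each. DCC and PLXNA4 rest on fewer than 20 reads, and their plotted values depend on the added prior count.

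Among the secreted semaphorins, the reads of SEMA3E and SEMA3D were fewer after MBD2 knockdown while the abundant SEMA3C and SEMA3A differed little. SEMA3E, a repulsive ligand in vessel patterning that binds the plexin PLXND1 directly, had 92 counts in sh-MBD2 against 359 in sh-NC, or 2.48 and 9.95 TPM. The log2 ratio gave -1.97 (interval -2.32 to -1.64), 3.91-fold lower in sh-MBD2. SEMA3D had 15 and 44 counts, 0.419 and 1.26 TPM, and a log2FC of -1.53 with an interval from -2.51 to -0.69. SEMA3G went the other way, with 26 counts in sh-MBD2 against 8 in sh-NC, which gave a log2FC of 1.63 (interval 0.51 to 3.05) and a level under 1 TPM in both libraries. SEMA3A, the classic collapsin that repels axons, had 1639 and 1796 counts and a log2FC of -0.14. SEMA3C had 4775 and 4177 counts and a log2FC of 0.18. SEMA3B and SEMA3F, both ligands that use neuropilins, had a log2FC of -0.25 and -0.087. Because SEMA3C alone made up 70.3% of the SEMA3 TPM in sh-MBD2 and 62.9% in sh-NC, the summed level of the 7 SEMA3 genes was almost equal, at 229.7 and 230.5 TPM.

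SEMA3C, SEMA3E, SEMA3A and SEMA3D lie within 4.44 Mb of chromosome 7, from 80742538 to 85186855 (GRCh38, GENCODE 29). The lower genes did not form an unbroken block there, since SEMA3A lies between SEMA3E and SEMA3D. SEMA3E spans 83363238 to 83649113 on the minus strand, and no other gene of the tables with at least 10 counts overlaps it.

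All 10 membrane semaphorins with at least 10 counts (of 13 genes) lay between -1 and 1. Of all genes tested, only 10.55% lay past either line, so this was common. SEMA4B had the highest level of them, with 99.0 TPM in sh-MBD2 and 72.6 TPM in sh-NC, 2156 and 1540 counts, and a log2FC of 0.48 (interval 0.38 to 0.57). SEMA6B had 586 and 470 counts and a log2FC of 0.31. SEMA4F, with 319 and 430 counts, had a log2FC of -0.44 (interval -0.65 to -0.23). SEMA4D, a ligand of PLXNB1 also made by lymphocytes, had 319 and 350 counts and a log2FC of -0.14 with an interval that held 0. SEMA4C, SEMA4G, SEMA6C, SEMA4A, SEMA6A and SEMA7A also had intervals that held 0, the last 3 of them with at most 25 counts. MRPL43 overlaps SEMA4G on the opposite strand with 824 counts, and without knowledge of the strand setting the reads of the pair cannot be told apart.

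NRP2 and 7 of the 9 plexins were above 0 on the log2 scale, beside 8582 of all 17545 genes tested, while NRP1 was near 0. Levels differed widely between these receptors. NRP1 had 6005 counts in sh-MBD2 against 5856 in sh-NC, a log2FC of 0.027 with an interval that held 0 (-0.025 to 0.080). With log2 of TPM plus 0.1 its value was -0.0007. NRP2, which binds SEMA3F and VEGFC, had 3984 and 2383 counts, or 105 and 64.2 TPM, and a log2FC of 0.73 (interval 0.66 to 0.81). The ratio of NRP1 to NRP2 TPM was thus 2.78 in sh-NC and 1.71 in sh-MBD2. A transcript on the same strand, AC007362.1, overlaps NRP2 and had 469 and 189 counts, so the reads of both are uncertain.

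The median log2FC of the plexins was 0.26, and 4 of the 9 reached 10 TPM in a library. PLXNB2 had the highest level, with 91.3 TPM in sh-MBD2 and 74.3 TPM in sh-NC and a log2FC of 0.33 (interval 0.25 to 0.40). PLXND1, the receptor of SEMA3E, had 2018 and 1770 counts and a log2FC of 0.18. The TPM of SEMA3E relative to PLXND1 was 0.222 in sh-NC and 0.0500 in sh-MBD2. PLXNA2 was the plexin furthest below 0, with 76 and 150 counts and a log2FC of -0.99 (interval -1.41 to -0.58). PLXNA4 had 16 counts in sh-MBD2 against 2 in sh-NC, which gave a log2FC of 2.71 with a wide interval (0.90 to 6.16). PLXNA1, PLXNA3, PLXNB1 and PLXNB3 had a log2FC of 0.26, 0.44, 0.19 and 0.78. PLXNC1, the receptor of SEMA7A, had 35 and 39 counts, and like PLXNA4 it was under 1 TPM in both libraries. CCDC41 overlaps PLXNC1 on the opposite strand with 343 and 311 counts, so the reads of PLXNC1 are uncertain. The summed TPM of the plexins was 191 in sh-MBD2 and 163 in sh-NC.

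**Figure D2:**
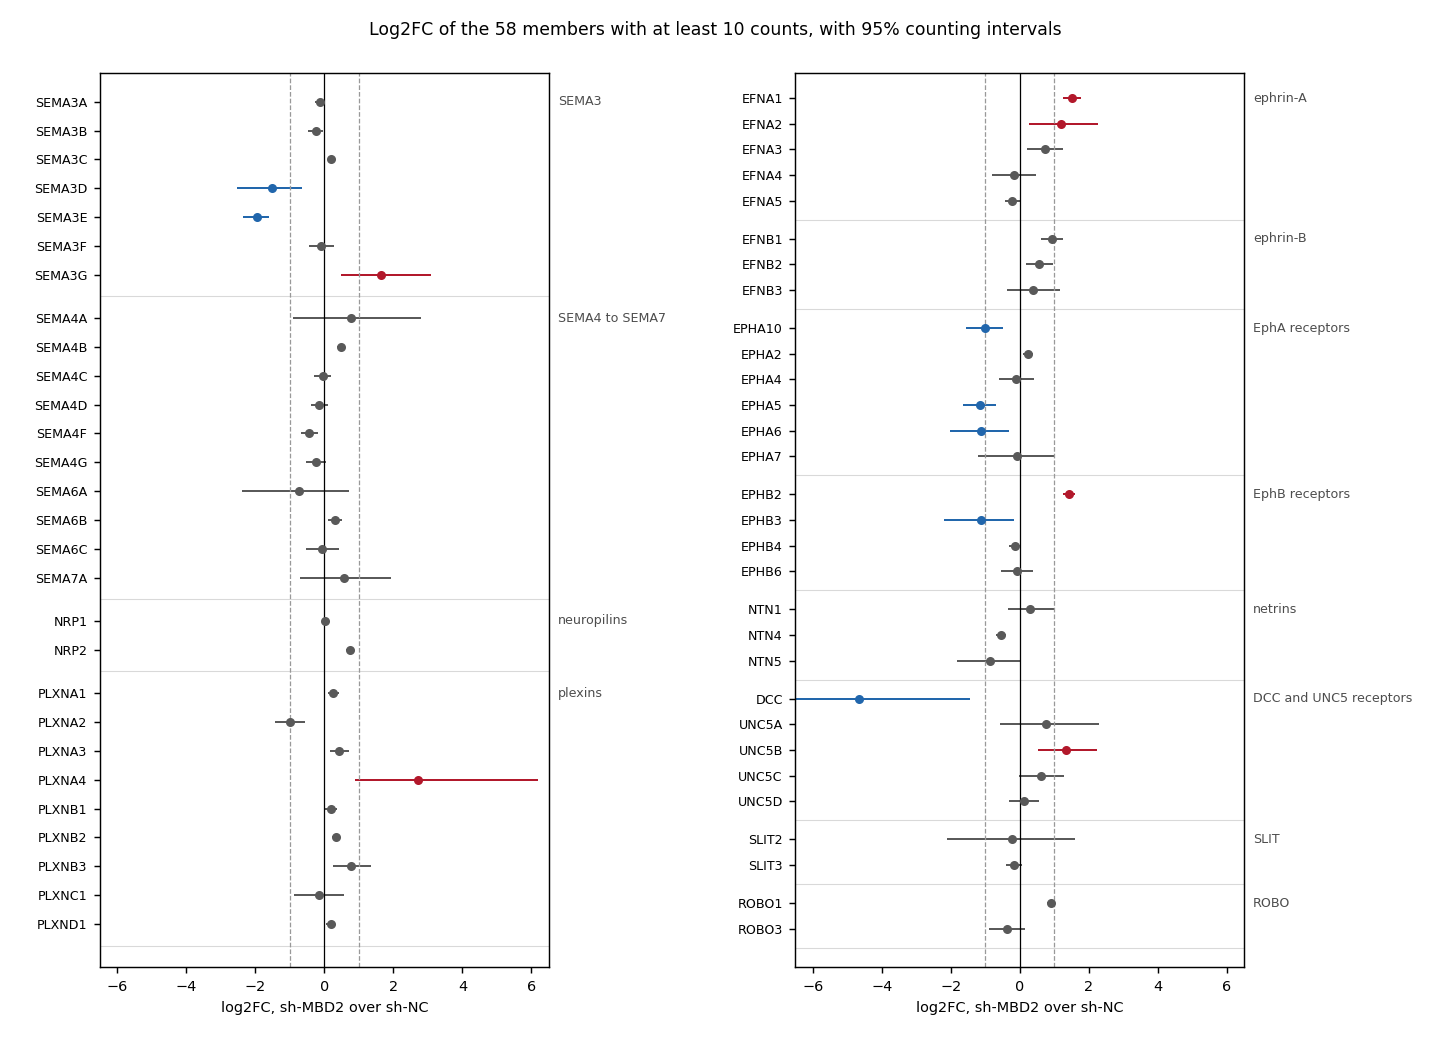
Log2FC (sh-MBD2 over sh-NC) of the 58 genes with at least 10 counts, by family, with bars for the 95% counting interval, dashed lines at 1 and -1, red for genes above 1 and blue for genes below -1. The whole bars of EFNA1 and EPHB2 lie right of 1 and those of SEMA3E and DCC left of -1; the bar of DCC has no lower end, since it had 0 counts in sh-MBD2.

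In the ephrin and Eph system, 6 of the 8 ephrin ligands were above 0 and 2 below, and 2 of the 10 Eph receptors with at least 10 counts were above 0 and 8 below, beside 8582 above and 8963 below among all genes tested. The interval held 0 for 2 of these ephrins and 3 of these receptors, beside 10858 of all 17545 genes tested. Over all guidance ligands with at least 10 counts, 13 were above 0 and 17 below, and over all receptors 16 and 12. The difference between ligands and receptors was not tested. EFNA1, a ligand of EPHA2 that is known as a TNF-induced gene of endothelium, had 594 counts in sh-MBD2 against 207 in sh-NC, or 53.9 and 19.3 TPM. The log2 ratio gave 1.51 (interval 1.28 to 1.75), 2.85-fold higher in sh-MBD2. EFNA2 had 33 and 14 counts and a log2FC of 1.20 (interval 0.29 to 2.24), and it overlaps MUM1 on the same strand, which had 1270 counts. EFNA3 had 97 and 58 counts and a log2FC of 0.73, and EFNA4 had 45 and 50 counts and a log2FC of -0.16. EFNA5, with 443 and 512 counts, had a log2FC of -0.22 (interval -0.40 to -0.031). EFNA1 took 38.1% of their TPM in sh-NC and 62.1% in sh-MBD2, and its TPM relative to EFNA5 was 1.12 and 3.71.

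EFNA4, EFNA3 and EFNA1 lie in this order within 71.1 kb of chromosome 1, from 155063731 to 155134857 (GRCh38, GENCODE 29), with EFNA1 at 155127460 to 155134857 on the plus strand. Their log2FC in this order was -0.16, 0.73 and 1.51. EFNA3 and EFNA4 overlap on the same strand in the deposited annotation, so the split of reads between them is uncertain. No other gene with at least 10 counts overlaps EFNA1.

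The B ephrins, which can also signal back into the cell that carries them, were all above 0. EFNB1 had 284 counts in sh-MBD2 against 148 in sh-NC, or 15.0 and 8.01 TPM, and a log2FC of 0.93 (interval 0.64 to 1.23). EFNB2, a marker of arterial endothelium, had 155 and 104 counts and a log2FC of 0.56 (interval 0.20 to 0.94). EFNB3 had 38 and 29 counts, and its interval held 0. The summed TPM was 86.9 in sh-MBD2 and 50.6 in sh-NC for the A ephrins, and 23.1 and 13.8 for the B ephrins.

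Among the Eph receptors, EPHB2 was higher in sh-MBD2 and 4 receptors with far fewer reads than EPHB2 were lower. EPHB2, a receptor of the B ephrins that is known for setting cell position in the intestinal crypt, had 1488 counts in sh-MBD2 against 549 in sh-NC, or 56.1 and 21.2 TPM. The log2 ratio gave 1.43 (interval 1.29 to 1.57), 2.69-fold higher in sh-MBD2. EPHB4, the partner of EFNB2, had 887 and 970 counts and a log2FC of -0.14, and the B receptor with the highest level differed between the libraries. EPHB4 took 56.4% of the EphB TPM in sh-NC, and EPHB2 took 61.6% in sh-MBD2. SLC12A9 overlaps EPHB4 on the opposite strand with 365 and 340 counts, so the reads of EPHB4 are uncertain. EPHB3 had 14 and 31 counts and a log2FC of -1.13 (interval -2.18 to -0.20), and it overlaps EIF2B5 on the same strand, which had 1380 counts. EPHB6, which lacks kinase activity, had 92 and 97 counts. EPHB2 spans 22710839 to 22921500 on the plus strand of chromosome 1 (GRCh38, GENCODE 29), and EPHA8, which had no count in either library, lies in the same 358 kb.

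EPHA2, the main A receptor of these cells, had 1347 counts in sh-MBD2 against 1127 in sh-NC, or 59.4 and 51.0 TPM, and a log2FC of 0.25 (interval 0.13 to 0.36). It made up 90.3% and 82.2% of the EphA TPM. The TPM of EFNA1 relative to EPHA2 was 0.378 in sh-NC and 0.908 in sh-MBD2. The other A receptors were under 4 TPM, and 3 of them were below -1. EPHA5 had 61 and 136 counts and a log2FC of -1.16 (interval -1.63 to -0.72). RP11-408P14.1 overlaps EPHA5 on the opposite strand with 248 and 258 counts, so the reads of EPHA5 are uncertain. EPHA6 had 20 and 44 counts and a log2FC of -1.13 (interval -1.99 to -0.35). EPHA10, which like EPHB6 lacks kinase activity, had 50 and 101 counts and a log2FC of -1.02 (interval -1.54 to -0.52). EPHA4 and EPHA7 had a log2FC of -0.10 and -0.093, and their intervals held 0.

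MBD2 binds methylated CpG, and the start regions of EPHB2 and SEMA3E are shown as the most and the least CpG-rich of the 4 genes with the whole interval past a line, so their contrast was chosen. The 250 bases before the RefSeq start of each gene (GRCh38.p14) are given 5′ to 3′ on the strand of the gene, with every CpG in capitals. The EPHB2 bases are chr1:22710588-22710837 on the plus strand and hold 42 CpG, and the SEMA3E bases are chr7:83649140-83649389 on the minus strand and hold 6.
EPHB2: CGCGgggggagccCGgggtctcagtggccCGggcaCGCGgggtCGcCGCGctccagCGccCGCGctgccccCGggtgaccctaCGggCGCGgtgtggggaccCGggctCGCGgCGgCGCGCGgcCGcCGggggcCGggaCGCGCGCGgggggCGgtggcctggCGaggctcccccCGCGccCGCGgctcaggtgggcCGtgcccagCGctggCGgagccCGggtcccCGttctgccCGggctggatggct
SEMA3E: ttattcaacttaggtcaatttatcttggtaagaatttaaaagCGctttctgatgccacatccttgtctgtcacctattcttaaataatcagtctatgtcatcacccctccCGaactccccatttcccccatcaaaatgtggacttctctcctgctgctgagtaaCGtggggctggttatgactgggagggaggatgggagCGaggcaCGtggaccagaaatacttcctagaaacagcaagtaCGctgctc
The windows differ in CpG density, and neither says whether the CpG are methylated in TFK1. With the 50 bases after the start included, the 300-base window of EPHB2 held 49 CpG, and 1.60% of the 35116 RefSeq windows of this length held as many. The window of SEMA3E held 6, and 36.8% of all windows held as few, so its low content is common. A further SEMA3E start in RefSeq had 1 CpG, and the windows of EFNA1 and DCC, the other genes with the whole interval past a line, had 28 and 15. A window was matched for 49 of the 58 genes, and where RefSeq gives several starts the first listed was used. The median was 30.0 CpG over 5 genes above 1, 17.0 over 6 genes below -1 and 22.0 over 38 genes between, beside 14.0 over all windows. All windows take in every listed start, also of genes not read here, so that median is not a background built alike. The ranges overlapped widely, from 8 to 49 CpG for the higher and from 6 to 30 for the lower genes, and with the richest window of each gene the medians were 30.0, 20.5 and 28.5.

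Netrins were represented mainly by NTN4, a basement membrane protein that binds laminin. NTN4 had 1121 counts in sh-MBD2 against 1619 in sh-NC, or 54.2 and 80.4 TPM, and a log2FC of -0.54 (interval -0.65 to -0.43). It made up 94.3% and 95.4% of the netrin TPM, which summed to 57.5 in sh-MBD2 and 84.3 in sh-NC. NTN1, the ligand of DCC and UNC5, had 50 and 40 counts and an interval that held 0. NTN5 had 18 and 33 counts and a log2FC of -0.87 (interval -1.80 to -0.013).

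DCC and the 4 UNC5 genes were scarce, below 3 TPM in both libraries, while NEO1, a further netrin receptor outside these families, had 53.1 TPM in sh-MBD2 and 54.6 TPM in sh-NC and a log2FC of -0.012. DCC, the attractive netrin receptor that is often lost in colorectal cancer, had 0 counts in sh-MBD2 against 12 in sh-NC. Set against a floor of 3 counts it was at least 4.02-fold lower, a bound that takes the 12 counts as exact. The counting interval of its log2FC, which takes in the error of both counts, reached up to -1.48 and so allows a smaller fold. All 4 UNC5 genes, which mediate repulsion and act as dependence receptors, lay above 0, beside 8582 of all 17545 genes tested. UNC5B had 49 and 19 counts and a log2FC of 1.34 (interval 0.57 to 2.20), at 1.25 and 0.498 TPM. UNC5C had 59 and 38 counts and a log2FC of 0.62 (interval 0.014 to 1.25). The intervals of UNC5A and UNC5D held 0. LSM12P1 overlaps UNC5D on the opposite strand with 352 and 207 counts, against 104 and 95 for UNC5D, so the reads of UNC5D are uncertain. The median log2FC of DCC and the UNC5 genes was 0.62, also with DCC placed at its bound.

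Among the SLIT and ROBO genes, most reads were of ROBO1. ROBO1, the receptor that mediates repulsion by SLIT proteins, had 3215 counts in sh-MBD2 against 1706 in sh-NC, or 74.9 and 40.8 TPM, and a log2FC of 0.91 (interval 0.82 to 0.99), so its whole interval lay above 0 and below the line at 1. It made up 96.9% and 92.7% of the ROBO TPM. ROBO3 had 63 and 81 counts, and its interval held 0. Of the ligands, SLIT3 had 380 and 422 counts and a log2FC of -0.16, and SLIT2 had 6 and 7 counts. The summed TPM of the SLIT genes in sh-MBD2 was 0.877 times that in sh-NC.

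Over all ligands the TPM summed to 580 in sh-MBD2 and 541 in sh-NC, a ratio of 1.07, and over all receptors to 714 and 577, a ratio of 1.24. The ratio was 1.76 for ROBO, 1.72 for the A ephrins, 1.67 for the B ephrins, 1.49 for the EphB receptors and 0.683 for the netrins. These sums follow the leading gene of each family, namely ROBO1, EFNA1, EFNB1, EPHB2 and NTN4. The median log2FC within a family could differ from its sum, as for the EphB receptors, with a median of -0.11.

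Genes that work with these ligands and receptors inside and beside the cell were compared as a list of 115 genes, of which 114 were found and 104 had at least 10 counts. A log2FC above 1 was found for 3 of them (2.88%, beside the 5.48% of all genes) and below -1 for 5 (4.81%, beside the 5.07%), and the median was -0.029. VEGFC, a ligand of NRP2, had 333 counts in sh-MBD2 against 140 in sh-NC and a log2FC of 1.24 (interval 0.95 to 1.54). ABLIM3, an actin-binding LIM protein, had 166 and 45 counts and a log2FC of 1.86 (interval 1.39 to 2.38). PAK3, a kinase activated by RAC1 and CDC42, had 17 counts and 0, at least 5.63-fold higher against a floor of 3 counts with the 17 taken as exact, while its counting interval began at a log2FC of 2.04, a smaller fold. CHL1, an adhesion molecule that associates with NRP1, had 104 and 233 counts and a log2FC of -1.17 (interval -1.52 to -0.83). CHN2, SRGAP3, TRIM67 and HGF were the other lower genes, at a log2FC of -1.36, -1.19, -1.20 and -1.93, the last from 2 and 9 counts with an interval that held 0. The small GTPases RHOA, RAC1 and CDC42, through which many of these receptors act on actin, had a log2FC of -0.14, 0.21 and 0.066. ADAM10, a protease that sheds ephrins, had 3981 and 5860 counts and a log2FC of -0.57 (interval -0.63 to -0.51).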

How the data were processed

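Total RNA of TFK1 cells with knockdown of MBD2 (sh-MBD2) and of negative control cells (sh-NC) was sequenced, 1 library each. The authors deposited unnormalized counts of reads for each gene, and in a separate table TPM. The submitters' processing notes name fastp, HISAT2 2.1.0, featureCounts, DESeq 1.18.1 and GRCh38.p13, but the deposited starts of all 69 genes differ from GENCODE 29 (GRCh38), so positions were taken from GENCODE 29 by Ensembl identifier. The strand setting of counting is not given in the sources used here. Rows repeating a symbol with equal values were merged, leaving 56638 genes of 63677 rows, and TPM summed to 1000000 per library.

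Counts were scaled with TMM factors (edgeR 4.0.16, R 4.3.3), and log2FC was computed after adding 0.5 counts scaled by library size. Intervals came from scipy 1.17.1. No test was run, since 1 library per condition gives no estimate of the spread between cultures. A library at 0 counts was set to 3 counts for a fold, given as a bound. The script was tested on simulated data. Alternatives were the DESeq2 1.42.0 size factors, total counts, a prior of 2, log2 of TPM plus 0.1 or 1, and minimums of 1 or 100 counts. Members past 1 or -1, the highest members of each family and listed partners past 1 or -1 were named by rule. Further members, ADAM10, NEO1, RHOA, RAC1 and CDC42 were chosen with their values in view. The members and lists were chosen with earlier results of these data known. RefSeq promoter windows were matched by symbol.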

Additional observations from a re-analysis of the deposited data

How the results depend on the processing

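EFNA1, EPHB2 and SEMA3E stayed past the same line under the DESeq2 size factors, total counts, a prior of 2 counts and log2 of TPM plus 0.1 or 1, 3 of the 13 genes past 1 or -1. For single genes, 292 values under an alternative stayed within their counting interval and 3 did not: with TPM plus 1, SEMA3D moved to -0.67, DCC to -0.46 and PLXNA4 to 0.23, since that pseudocount pulls genes of low TPM towards 0. EPHA10 was -0.99 with a prior of 2, and PLXNA2 passed -1 with total counts. With TPM plus 1, 2 of the 58 members were higher and 1 lower, against 374 and 340 of all 17545 genes tested. The share of lower members was then close to that of all genes. No partner gene was lower (0 of 5). With at least 100 counts, 2 of 38 members were higher (5.26%) and 3 lower (7.89%). Of all 11972 genes at that minimum, 213 were higher (1.78%) and 127 lower (1.06%), and 3 partner genes were lower. With at least 1 count, 4523 of all genes were higher and 4303 lower, against 7 and 9 members. The number of all genes at that minimum is not given here, so these counts do not compare as shares. At that minimum 7 partner genes were higher, and the ROBO median went from 0.27 to -0.37 as ROBO2, with 1 count, entered. The other scalings shifted every gene by 0.0089 (DESeq2), -0.017 (total counts) and -0.028 (TPM). No paired analysis was possible because neither condition has more than 1 library. Depth limits the scarce genes: DCC and PLXNA4 rest on fewer than 20 reads.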
